A study of Mus musculus with 4 samples.

Results

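The genes described here are those that encode chemokine ligands and receptors, and the data are PPARγ binding sites in alveolar macrophages (AMs). Members were all protein-coding genes whose symbol is Ccl, Cxcl, Xcl, Ccr, Cxcr, Xcr or Ackr followed by a number, together with Pf4 and Ppbp, which are CXC ligands with older names. There were 59 such genes (38 ligands and 21 receptors) among 20923 protein-coding genes on chromosomes 1 to 19 and X. PPARγ was mapped by HT-ChIPmentation, a low-input form of ChIP-seq in which a transposase adds sequencing adaptors to chromatin held on the antibody beads. The series has 2 ChIP libraries from AMs of WT mice, made with the same antibody, and 2 input libraries without antibody, which served the authors as controls and were not analysed here. AMs were obtained by bronchoalveolar lavage and cell sorting, and the mice were C57BL/6J aged 9 wk. No other genotype or treatment was compared, and the labels do not say whether libraries 1 and 2 came from separate mice.

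Chemokines are small secreted proteins that guide leukocytes along concentration gradients. CC and CXC ligands, named for the spacing of their first cysteines, bind receptors that pass through the membrane repeatedly and signal through inhibitory G proteins, whereas atypical receptors take up ligand without coupling to G proteins. AMs live on the airway surface, where they are a source of chemokines for neutrophils and monocytes, and PPARγ, a lipid-sensing nuclear receptor that partners with RXR on DNA, is required for their identity.

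A consensus region was a stretch of the mm10 genome covered by overlapping peaks from both libraries, and each of the 20233 consensus regions was assigned to the protein-coding gene whose transcription start site (TSS) lay nearest its centre. Library 1 had 83787 peaks and library 2 had 28535. All 10 AM marker genes examined had a consensus region, among them Siglecf, Marco, Car4 and Pparg. Because the list was chosen with earlier results of these data known, this is a description and no check of the cells. The counts were 2 of 7 lymphocyte markers, 2 of 6 neutrophil markers and 2 of 6 lung epithelium markers, shares near that of all protein-coding genes (31.6%), so these lists do not check for the presence of other cells. Nearest-gene assignment is a statement about position and not about which gene a site acts on, and no expression was measured in this series.

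Of the 59 members, 32 (54.2%, 95% Wilson interval 41.7 to 66.3) had at least 1 consensus region, whereas the share among all protein-coding genes was 31.6%. The share was 19 of 38 ligand genes (50%, 34.8 to 65.2) and 13 of 21 receptor genes (61.9%, 40.9 to 79.2). The excess was smaller when a region had to overlap the gene body or the 5 kb upstream of it, a rule that 21 members (35.6%) and 30.4% of all genes met. The 32 genes held 108 regions, 58 next to ligand genes and 50 next to receptor genes. Chemokine genes lie in tandem arrays, so the members are not independent draws. The 4 arrays with 5 or more members, on chromosomes 5, 9 and 11, contained 25 genes, of which 19 (76.0%) had a region, and 75 of the 108 regions. Outside them 13 of 34 members (38.2%) had one.

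The counts of genes with a region are given by functional group, beside a share of 31.6% of all genes, and differences between groups were not tested. At least 1 region was found at 7 of 8 inflammatory CC ligand genes, 2 of 3 CC ligand genes of the myeloid group, 4 of 6 neutrophil-attracting CXC ligand genes and 2 of 2 interferon-inducible CXC ligand genes. One was also found at 2 of 13 homeostatic and type 2 CC ligand genes, and at 2 of 6 remaining CXC and C ligand genes. The 13 include near-identical Ccl21 and Ccl27 copies, at which an empty result is uncertain. All 8 inflammatory CC and all 6 neutrophil-attracting CXC ligand genes lie in the arrays described above, but of the 13 only Ccl1 does. Functional group and array therefore cannot be told apart in these counts. Among receptors, 8 of 10 CC receptor genes, 5 of 7 CXC and X receptor genes and 0 of 4 atypical receptor genes had one.

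**Figure D1:**
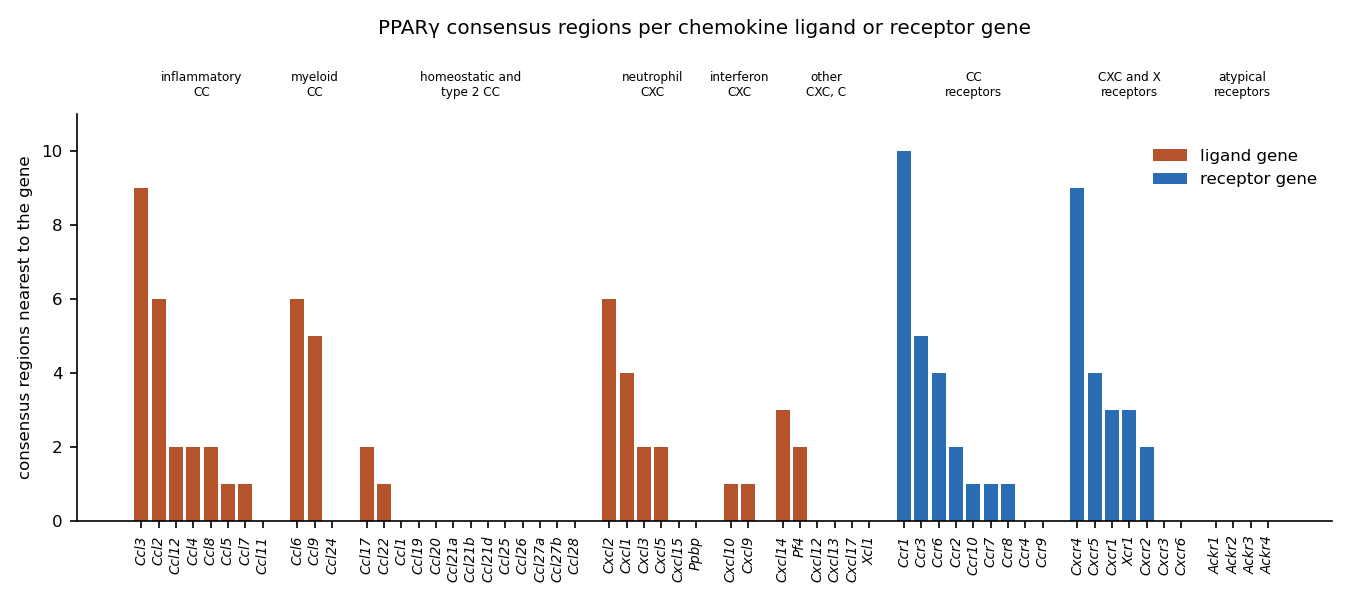
Bars give the number of PPARγ consensus regions (y axis) nearest to each of 58 member genes (x axis), grouped by function, with ligand genes in brown and receptor genes in blue. Ccr1 has 10 regions, and Ccl3 and Cxcr4 have 9 each (2 for Ccl3 with the GENCODE annotation). The homeostatic CC group and the atypical receptors are nearly or wholly empty, which is uncertain at the near-identical Ccl21 and Ccl27 copies.

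The strongest member regions were ranked by fold enrichment, the authors' ratio of ChIP over input signal at a peak's summit. Because the ratio depends on each library, regions were ranked within a library, and the lower of both percentiles was used. The 6 sequences shown first are the 150 bases around the library 1 summit of the best region of the 6 top-ranked genes (mm10, forward strand). Capitals mark matches to any of the 9 motifs searched.

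Ccl6, chr11:83592955-83593104: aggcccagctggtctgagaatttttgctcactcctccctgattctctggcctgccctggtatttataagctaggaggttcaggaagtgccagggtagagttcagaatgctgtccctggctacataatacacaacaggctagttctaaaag
Cxcl2, chr5:90897560-90897709: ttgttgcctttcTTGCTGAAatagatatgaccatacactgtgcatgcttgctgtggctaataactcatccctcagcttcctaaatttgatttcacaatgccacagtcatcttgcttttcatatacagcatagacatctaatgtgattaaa
Ccl8, chr11:82139956-82140105: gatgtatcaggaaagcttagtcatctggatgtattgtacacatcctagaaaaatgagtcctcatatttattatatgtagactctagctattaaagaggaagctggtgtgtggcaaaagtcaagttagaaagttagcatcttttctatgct
Ccr1, chr9:123928261-123928410: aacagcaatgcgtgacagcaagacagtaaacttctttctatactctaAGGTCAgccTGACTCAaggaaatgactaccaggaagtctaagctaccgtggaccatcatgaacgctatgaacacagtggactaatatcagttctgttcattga
Cxcr4, chr1:128705200-128705349: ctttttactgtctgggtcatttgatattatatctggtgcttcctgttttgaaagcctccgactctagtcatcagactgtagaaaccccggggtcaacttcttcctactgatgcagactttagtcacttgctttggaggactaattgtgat
Cxcl14, chr13:56353223-56353372: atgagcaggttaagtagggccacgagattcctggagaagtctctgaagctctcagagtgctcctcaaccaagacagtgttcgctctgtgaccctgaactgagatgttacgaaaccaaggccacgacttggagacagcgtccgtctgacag

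The Cxcl2 window held a CEBP match, and the Ccr1 window held the nuclear receptor core AGGTCA beside an AP-1 match. The other 4 windows held no match. The element bound by PPARγ with RXR is the DR1, searched here as 2 copies of AGGTCA in tandem with 1 base between them and up to 2 mismatches. It was found within 100 bp of the summit of library 1 or library 2 in 11 member regions (10.2%). The share of all consensus regions was 6.91%. The excess lay around library 2 summits (9.26% against 5.0%), while around library 1 summits the shares were 4.63% and 4.57%. Shown next, with the element in capitals, are the 2 member matches with 1 mismatch (Ccl6 and Ccr8) and the other 3 regions in which a match lay near the summits of both libraries.

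Ccl6, chr11:83593139-83593199: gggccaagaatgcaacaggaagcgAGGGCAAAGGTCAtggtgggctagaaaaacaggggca
Ccr8, chr9:120083239-120083299: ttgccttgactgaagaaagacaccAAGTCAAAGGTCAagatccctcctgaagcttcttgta
Ccl12, chr11:82101450-82101510: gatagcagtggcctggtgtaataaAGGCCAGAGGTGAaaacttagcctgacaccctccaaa
Cxcl14, chr13:56340251-56340311: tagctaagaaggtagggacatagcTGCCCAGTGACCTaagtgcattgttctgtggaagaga
Cxcr1, chr1:74198212-74198272: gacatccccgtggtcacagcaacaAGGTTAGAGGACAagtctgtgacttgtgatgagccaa

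The Ccl6 match was centred at -0.082 kb from the Ccl6 TSS and 20 bp from the library 2 summit, but lay more than 100 bp from the library 1 summit. The Ccl12 match was at -0.365 kb from its TSS, within 66 bp of the library 1 summit and 70 bp of the library 2 summit. At Ccr8 the element was at -8.86 kb, 14 bp from the library 1 summit and 70 bp from that of library 2. The Cxcl14 and Cxcr1 elements were at -43.7 and -3.61 kb.

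Among myeloid CC ligand genes, Ccl6, which encodes a rodent chemokine produced by macrophages, had the best-ranked region of all members. This region (chr11:83585349-83594078, 8730 bp) ranked 24 of 20233, with a fold enrichment of 25.2 in library 1 and 20.4 in library 2. It covered the whole gene and its TSS. Library 1 called it as a single peak, whereas library 2 resolved it into 6 peaks, the strongest 4495 bp wide with its summit at -0.062 kb from the TSS. The library 1 summit lay at 0.057 kb, so that both summits flanked the Ccl6 TSS.

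A second wide region (chr11:83598456-83607742, 9287 bp), centred 10 kb upstream of Ccl6, ranked 63, with fold enrichments of 24.3 and 14.8. Its summits were 922 bp apart, and library 2 again split it into 6 peaks. Together these regions covered 18 of the 135 kb occupied by all member regions. The other 4 Ccl6 regions, all upstream, had fold enrichments of 2.78 to 10.1 in library 1 and 5.35 to 10.1 in library 2. Of the 6, 5 were centred within E230016K23Rik, a noncoding gene that runs alongside the cluster.

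Ccl9, the neighbouring gene encoding another macrophage chemokine, had 5 regions. The leading one (chr11:83576872-83580195) spanned the Ccl9 TSS and had fold enrichments of 9.10 and 6.75. The remaining 4 had 4.56 to 8.59 in library 1 and 2.92 to 7.59 in library 2. When TSSs of noncoding genes were also allowed as nearest, 3 of these 5 regions stayed with Ccl9. Ccl24, an eotaxin that attracts eosinophils, had no peak in either library.

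Inflammatory CC ligands recruit monocytes, T cells and other effector cells. Ccl3 and Ccl4 encode MIP-1α and MIP-1β. Ccl3 had 9 regions, the most of any ligand gene, of which 7 were centred more than 3 kb from any TSS. With the GENCODE annotation 2 of the 9 were nearest to Ccl3, fewer than for Ccl2, Ccl6 or Cxcl2. Its best region (chr11:83639577-83641527) lay 8.83 kb downstream of the TSS, with fold enrichments of 12.1 and 7.87. A further region spanned the Ccl3 TSS with 8.0 and 6.75. The weakest in library 1 had 2.99 there but 7.31 in library 2. Ccl4 had 2 regions, one in its intron with 11 and 7.31 and one 3.58 kb upstream with 7.41 and 5.35. Ccl5, which encodes RANTES, had 1 region 13.9 kb upstream with 9.48 and 5.45.

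Ccl2, which encodes the main monocyte attractant MCP-1, had 6 regions and none across its TSS. Of these, 5 lay in a 19.6 kb stretch beginning more than 10 kb upstream of the gene. The strongest (chr11:82016280-82017036), 18.9 kb upstream, had fold enrichments of 16.0 and 8.55, with summits 3 bp apart. Its neighbours at 20.2 and 12.4 kb upstream had 15.4 and 14.5 in library 1 and 7.54 and 6.75 in library 2. The promoter region, centred 0.215 kb upstream, was weaker, with 8.89 and 4.79. Ccl7, which encodes another monocyte attractant, had 1 region 3.73 kb upstream with 5.33 and 4.52, and none with the GENCODE annotation.

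Ccl12, whose product also binds Ccr2, had a region across its promoter and TSS (chr11:82101214-82101990) with 8.0 and 5.63 and summits 4 bp apart, and a second with 7.11 and 3.68. Ccl8, which encodes a further monocyte attractant, had 2 regions 24.6 and 25.5 kb downstream. The first (chr11:82139258-82140293) ranked 229, with 17.2 and 12.3, whereas the second had 7.41 and 4.52. Ccl11, the gene of another eotaxin, had 2 peaks in library 1 and none in library 2, and therefore no consensus region.

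Neutrophil-attracting CXC ligands signal through Cxcr2. Cxcl2 had 6 regions, and the best (chr5:90896341-90900026, 3686 bp), 5.72 kb upstream, ranked 139 with fold enrichments of 18.7 and 15.7. Its summits were 1049 bp apart. A promoter region across the TSS had 10.6 and 10.9, and a region of 3689 bp over the end of the gene had 8.0 and 11.2. Cxcl2 thus had regions upstream of, across and beyond the gene. Cxcl1 had 4 regions, all more than 3 kb from a TSS, with 5.63 to 8.29 in library 1 and 4.24 to 8.70 in library 2. Cxcl3 had 2, with 10.1 and 7.03 at 3.60 kb downstream, and 4.44 and 7.87 at 2.26 kb upstream. Cxcl5 had 2, at 58.9 and 17.0 kb upstream, with 10.4 and 9.18 in library 1 and 7.87 and 5.91 in library 2. Cxcl15, known as lungkine and made by lung epithelium, had 2 peaks in library 1 alone, and Ppbp had none.

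Interferon-inducible ligands of Cxcr3 attract activated T cells. Cxcl9 had 1 region (chr5:92322137-92323179) at the 3′ end of the gene, with 8.89 in library 1 and 12.1 in library 2. Cxcl10 had 1 region 4.67 kb upstream, in an intron of Art3, with 4.15 and 5.35. Cxcl10 was therefore below the median of all regions in library 1 (6.81) and at it in library 2 (5.35).

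Homeostatic CC ligands position lymphocytes and dendritic cells in lymphoid organs and epithelia, and Ccl17 and Ccl22 bind Ccr4. Ccl22 had 1 region 11.8 kb upstream with 8.0 and 8.98. Ccl17 had 2. One of them (chr8:94803553-94804927) differed most between libraries in its percentile, with a fold enrichment of 11.3 in library 1 but 2.58 in library 2, the lowest library 2 value of all member regions. The other had 6.22 and 3.96.

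No region was found for Ccl1, Ccl19, Ccl20, Ccl21a, Ccl21b, Ccl21d, Ccl25, Ccl26, Ccl27a, Ccl27b or Ccl28. Ccl27a had a library 1 peak at its TSS with a fold enrichment of 6.52, without a peak in library 2. The Ccl21 and Ccl27 genes are near-identical copies on chromosome 4. The authors removed reads of low mapping quality, so an empty result at these copies is uncertain.

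Among the remaining ligands, Cxcl14 had 3 regions 38.4 to 56.5 kb upstream. The best (chr13:56352172-56353933) ranked 636 with 18.4 and 9.82, and the others had 11.6 and 8.07 in library 1 and 5.94 and 5.21 in library 2. None of the 3 stayed with Cxcl14 when noncoding genes were allowed as nearest. Pf4, the gene of platelet factor 4, had 2 weaker regions downstream, with 8.0 and 4.24, and 3.85 and 6.19. Cxcl12 and Cxcl13, which attract progenitors and B cells, had 1 peak each in library 1 alone, Cxcl17 had 2, and Xcl1 had none.

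Receptor genes were led by Ccr1, a receptor for Ccl3, Ccl5, Ccl6 and Ccl9, with 10 regions. Of these, 7 lay more than 20 kb downstream of the TSS and occupied 17.9 of a 19.7 kb stretch. The best (chr9:123927238-123929781), 40.2 kb downstream, ranked 473 with fold enrichments of 15.1 and 12.1. A neighbouring region of 6843 bp had 15.4 and 10.1, and a further one had 15.4 and 9.54. The region across the Ccr1 TSS (chr9:123967324-123969536) had 13.3 and 9.82. The distant block also held weaker regions, with 4.94 and 5.63, 4.77 and 5.91, and 2.83 and 5.63.

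Ccr2, the receptor for Ccl2 on monocytes, had 2 adjacent regions 33.8 and 33.2 kb upstream, with 12.4 and 7.03, and 5.04 and 3.40. Ccr3, the eotaxin receptor, had 5, all 16.0 to 34.5 kb downstream, with 3.12 to 11.6 in library 1 and 3.96 to 5.91 in library 2. Several receptor genes lie side by side on chromosome 9, so a region between them has several possible targets.

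The other CC receptor genes had lower-ranked regions. Ccr6, the receptor for Ccl20, had 4, with 4.74 to 8.0 in library 1 and 3.44 to 5.07 in library 2. Ccr8, found on subsets of T cells, had 1 with 4.74 and 6.19, and Ccr10, the receptor for Ccl28, had 1 with 4.74 and 4.52. Ccr7, which guides dendritic cells to lymph nodes, had 1 region 27.6 kb upstream with 2.96 and 4.27, and lost it when noncoding genes were allowed as nearest. Ccr4 and Ccr9, receptors of T cells that home to skin and gut, had no peak in either library.

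Cxcr4, the receptor for Cxcl12, had 9 regions, of which 5 lay 113 to 133 kb upstream within a 20.6 kb block. The best of these (chr1:128704890-128706461) ranked 496 with 18.1 and 10.4, and the next had 10.9 in both libraries. The region across the Cxcr4 TSS had 15.1 and 6.19. Unlike most members, Cxcr4 has a wide interval in which it is the nearest gene, 428 kb against a member median of 45.0 kb. Cxcr1 and Cxcr2 are receptors of neutrophils. Cxcr1 had 3 regions, with 5.63 to 9.48 and 4.80 to 6.47, and Cxcr2 had 2 in its first few kilobases with 5.33 and 4.79, and 5.14 and 4.52. Cxcr5, the receptor for Cxcl13, had 4, with 4.56 to 10.7 and 3.09 to 5.52, and 10 with the GENCODE annotation. Xcr1, a receptor typical of cross-presenting dendritic cells, had 3, the best with 15.1 and 6.75 at 7.27 kb upstream. Cxcr3 and Cxcr6, expressed mostly by T cells, had 1 peak each in library 1 alone. Ackr1, Ackr2, Ackr3 and Ackr4 had no peak in either library.

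**Figure D2:**
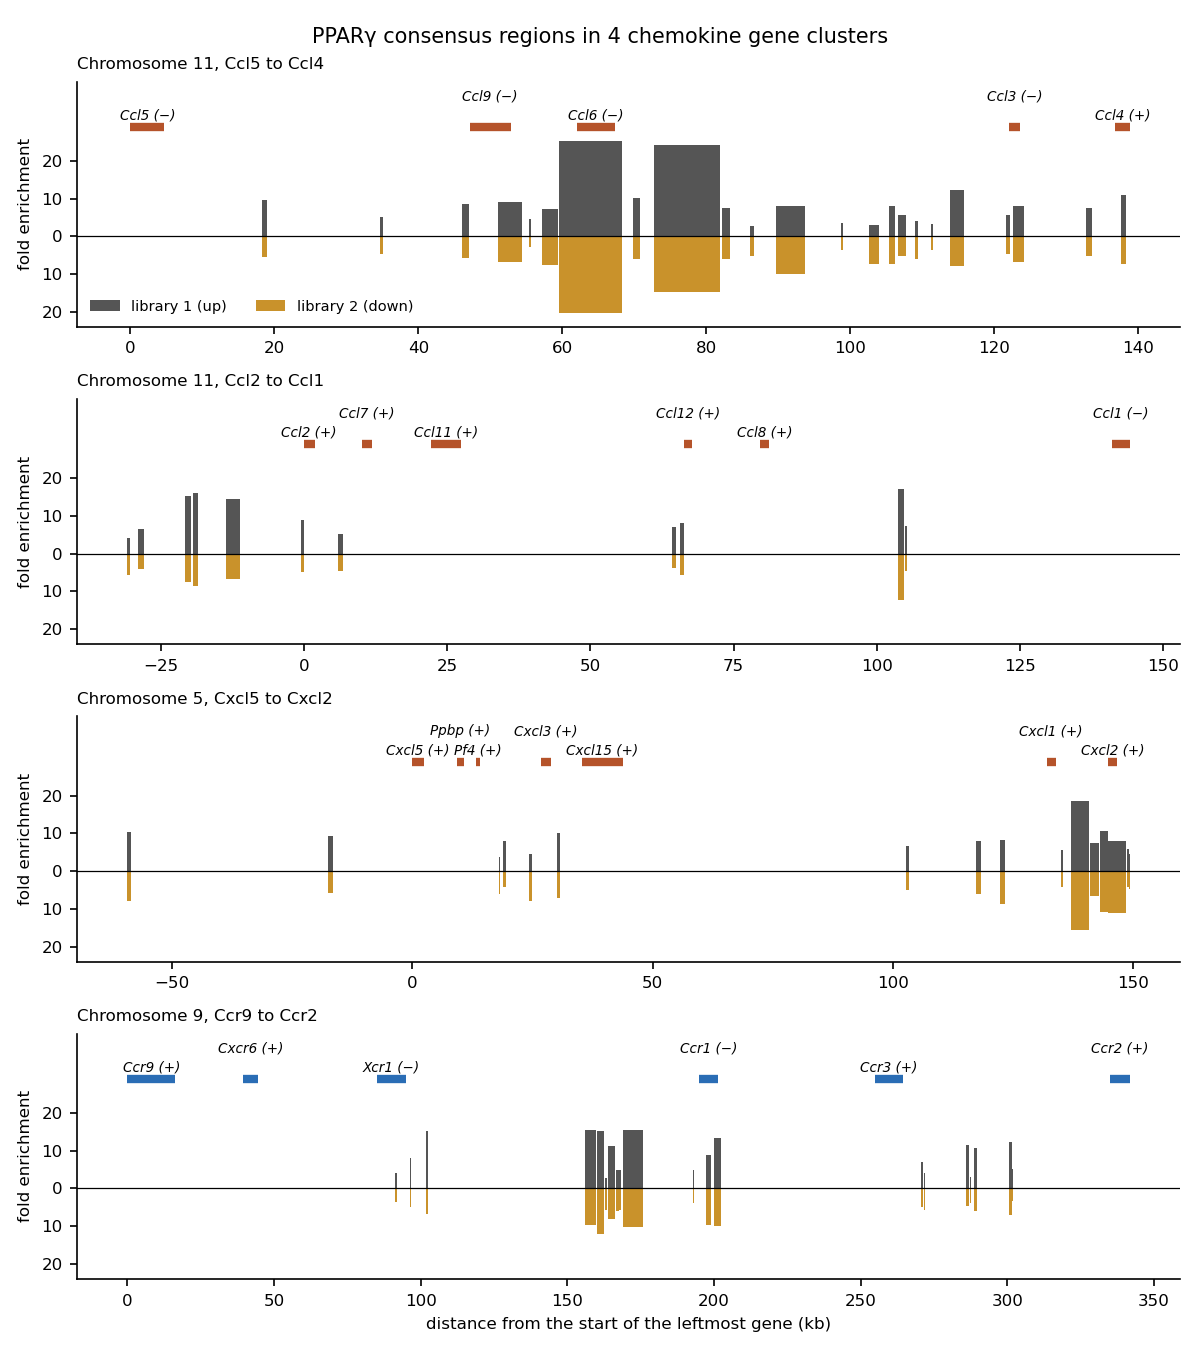
Each panel shows a gene array, with position in kb from the start of its leftmost gene on the x axis and fold enrichment on the y axis, upwards for library 1 and downwards for library 2. Bars span the consensus regions nearest to the named genes at the height of the strongest peak, and genes are drawn above with their strand. The 2 wide Ccl6 regions (25.2 and 24.3 in library 1) dominate the upper panel, and the block downstream of Ccr1 the lowest.

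The arrays differed in how densely they were occupied. Between the outer ends of Ccl5 and Ccl4 (138.9 kb on chromosome 11), all 5 genes had regions, and 23 were centred within the array, or 166 per Mb. The density was 81.8 per Mb in the Cxcl5 to Cxcl2 array, 63.9 in the receptor array on chromosome 9 and 34.7 in the Ccl2 to Ccl1 array. Counted over the intervals in which a member is the nearest gene, the density was 26.1 regions per Mb for all members and 7.68 for all genes. The median interval was 45.0 kb for members and 48.8 kb for all genes, but the density divides by summed intervals and not by medians. Per gene, there were 1.83 regions for members and 0.967 for all genes. The CCL arrays on chromosome 4 had no region, an uncertain result at the near-identical Ccl21 and Ccl27 copies there.

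Member genes with many regions were also more frequent than in the genome. There were 9 members (15.3%) with 5 or more regions, whereas the share among all genes was 5.79%. Among them were Ccr1, Ccl3, Cxcr4, Ccl2, Ccl6, Cxcl2, Ccl9 and Ccr3. Of these named genes, all except Cxcr4 lie in the tandem arrays, so they are not independent. Ccl3 had 2 regions with the GENCODE annotation. A region in the 90th percentile or above in both libraries was nearest to 7 members (11.9%), with Ccl6, Cxcl2, Ccl8, Cxcl14, Ccr1 and Cxcr4 among them, and to 4.2% of all genes. Members with a region had a mean of 3.38 regions and all genes with a region 3.06.

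Member regions lay mostly away from promoters. Of the 108, 87 (80.6%) were distal, that is centred more than 3 kb from any TSS, whereas 61.4% of all consensus regions were. At the level of genes, 29 of 59 members (49.2%) had a distal region and 18.1% of all genes had one. A region spanned the gene's own TSS at 7 members (11.9%), Ccl3, Ccl6, Ccl9, Ccl12, Cxcl2, Ccr1 and Cxcr4, while the share among all genes was 14.1%. By the position of the centre, 4 member regions (3.70%) were in promoters (18.6% of all regions), 17 (15.7%) in introns (46.6%) and 75 (69.4%) in intergenic sequence (29.8%). Chemokine genes are short, with a median length of 4.71 kb against 16.8 kb for all protein-coding genes, and the part of gene length in these shares was not tested.

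The median distance between region centre and TSS was 11.6 kb, and 8.51 kb for all regions. It was 8.37 kb for ligand genes and 16.5 kb for receptor genes. Only 8 member regions (7.41%) lay more than 50 kb from the TSS, 6 of them at receptor genes, compared with 16.9% of all regions. Regions were about equally often upstream (53, 49.1%) as downstream (55) of the TSS, and 45.3% of all regions were upstream. The split was 34 upstream and 24 downstream at ligand genes, but 19 and 31 at receptor genes.

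**Figure D3:**
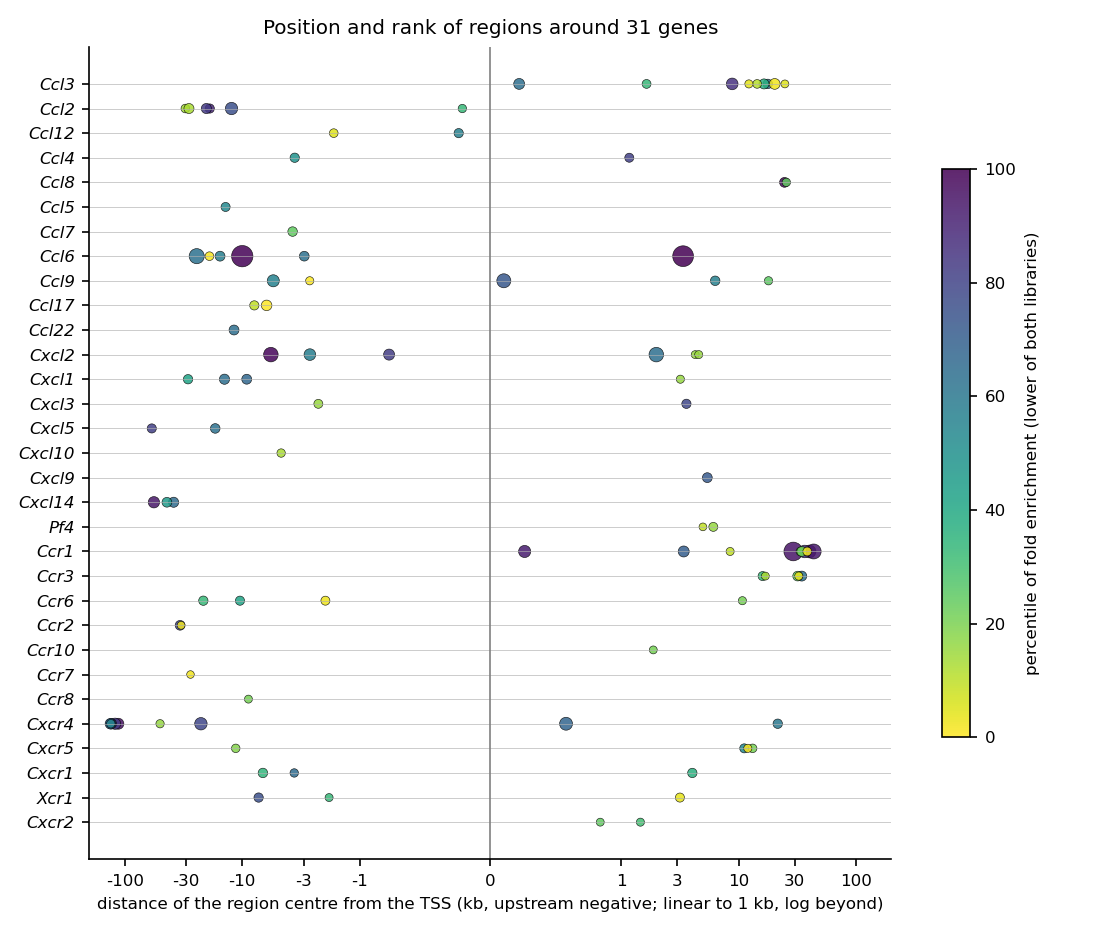
Each point is a consensus region of 1 of the 31 genes on the y axis, placed by the distance of its centre from the TSS in kb (x axis, linear within 1 kb and logarithmic beyond, upstream negative). Larger points are wider regions, and darker points have a higher percentile of fold enrichment in the lower of both libraries. Several dark points of Ccr1 lie 20 to 50 kb downstream, and those of Cxcr4 and Cxcl14 far upstream.

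Fold enrichments of member regions ranged from 2.78 to 25.2 in library 1 and from 2.58 to 20.4 in library 2. The medians were 8.0 and 5.85, and those of all consensus regions 6.81 and 5.35. The median of the lower percentile was 43.8 for member regions and 33.0 for all regions. It was 56.5 at ligand genes and 33.0 at receptor genes. This difference from all regions depended on how consensus was defined, as with summits at most 100 bp apart both medians were 32.5. In total, 52 of the 108 regions (48.1%) exceeded the median of all regions in both libraries, whereas 33.9% of all regions did, and 11 (10.2%) were in the 90th percentile or above in both (5.83% of all regions). Member regions were wider, with a median of 822 bp against 626 bp, and 15 (13.9%) exceeded 2 kb (6.90% of all).

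**Figure D4:**
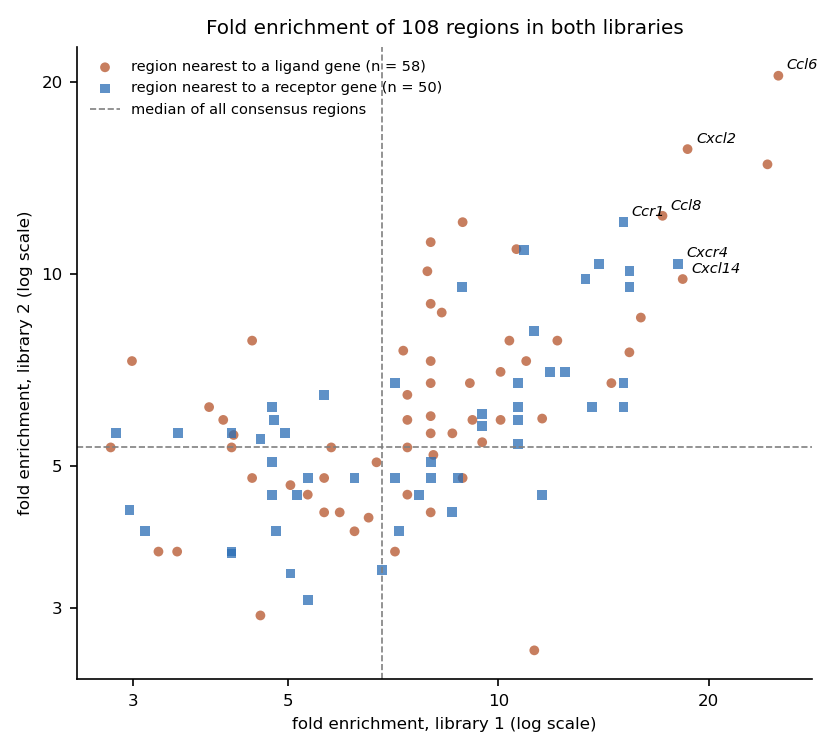
Each point is 1 of the 108 member regions, placed by its fold enrichment in library 1 (x axis) and library 2 (y axis), both on log scales. Circles are regions of ligand genes, squares those of receptor genes, and dashed lines the medians of all consensus regions (6.81 and 5.35). The leading region of Ccl6 is highest in both libraries, and the point lowest on the y axis is Ccl17.

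The libraries ranked member regions similarly but not identically. Across the 108 regions, Spearman's rho between the fold enrichments was 0.614, and 0.551 across all regions, where points share the library and neighbouring regions are not independent. The percentiles differed by more than 50 in 9 member regions (8.33%) and in 8.15% of all regions. The strongest peaks of both libraries were within 100 bp of each other in 52 regions (48.1%), and in 52.7% of all.

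Library 1 called many sites that library 2 did not. Members were nearest to 184 regions seen in library 1 alone and 30 in library 2 alone, with median fold enrichments of 4.15 and 4.35. Over all genes there were 61236 and 4870, with medians of 4.15 and 4.52. Of regions with a library 1 peak, 37.0% at members and 24.8% overall also had a library 2 peak. Of regions with a library 2 peak, 78.3% at members and 80.6% overall also had a library 1 peak. The strongest of library 1 alone were next to Cxcl2 (8.59) and Ccl17 (8.0), and the strongest of library 2 alone next to Cxcl1 (6.47) and Cxcl3 (6.19). With library 1 alone, 42 of 59 members (71.2%) had a peak, whereas 60.6% of all genes did. With library 2 alone the count was 32 (54.2%), the same 32 genes as in the consensus, whereas the share of all genes was 34.9%. Of the 27 members without a consensus region, 10 had library 1 peaks alone and 17 had no peak at all.

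Sequence motifs of macrophage transcription factors were looked for on either strand, at most 100 bp from the library 1 summit. PU.1, CEBP and RUNX factors help to establish macrophage enhancers, and STAT, AP-1, NF-κB and IRF factors act downstream of cytokines and microbial products. RUNX (TGTGGT) was the most frequent, in 32 of 108 member regions (29.6%, Wilson interval 21.8 to 38.8), against 19.8% of all regions. CEBP (TTGCNNAA) was found in 24 (22.2%, 15.4 to 30.9) against 15.1%, STAT (TTCNNNGAA) in 13 (12%, 7.17 to 19.5) against 7.30%, PU.1 (GAGGAAGT) in 11 (10.2%, 5.78 to 17.3) against 6.83% and AP-1 (TGANTCA) in 13 (12%, 7.17 to 19.5) against 9.98%. The intervals of STAT, PU.1 and AP-1 include the share of all regions. All these intervals treat regions as independent, although 75 of the 108 are nearest to genes of the tandem arrays, so they are too narrow. Within 50 bp of the summit, RUNX was in 13% of member regions against 11.3% of all regions, as often as the AGGTCA core (13% against 8.30%), and CEBP in 12% against 8.29%.

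The AGGTCA core was in 18 regions (16.7%) and in 14.9% of all regions, matches within a DR1 included. The DR1 was in 5 (4.63%) against 4.57% around the library 1 summit, and in 10 (9.26%) against 5.0% around the library 2 summit. NF-κB motifs were in 2 regions (1.85%), of Ccl2 and Ccl3, against 2.51%, and IRF motifs, searched as 2 copies of GAAA separated by 2 bases, in 3 (2.78%), of Ccl7, Cxcl10 and Cxcr4, against 3.34%. A match is a description of the sequence and no evidence that the factor was bound.

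**Figure D5:**
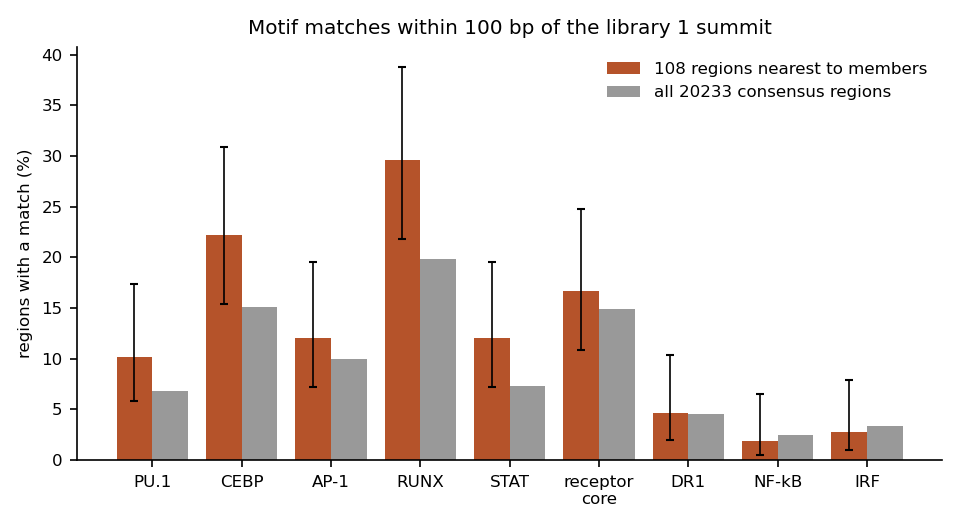
Bars give the percentage of regions with a motif match within 100 bp of the library 1 summit (y axis) for each motif (x axis), in brown for the 108 member regions with 95% Wilson intervals and in grey for all 20233 regions. Receptor core stands for AGGTCA. RUNX (29.6%) and CEBP (22.2%) are the most frequent in member regions, and the interval of RUNX lies above the share of all regions (19.8%), whereas within 50 bp RUNX is at 13% against 11.3%. The intervals treat neighbouring regions as independent and are therefore too narrow.

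A list of 48 genes of chemokine signalling was also examined, most of them acting downstream of the receptors, together with Cx3cl1, Cx3cr1 and Ccrl2, whose symbols fall outside the member pattern. Of these, 38 (79.2%, 65.7 to 88.3) had a consensus region, compared with 31.6% of all genes. The list was chosen with earlier results of these data known, so this contrast is descriptive. The most were found at Ptk2b (19), which encodes the kinase Pyk2, Prex1 (15), an exchange factor for Rac, Lyn (14), a Src family kinase, and Pik3r5 (13), the regulatory subunit of PI3Kγ. The best region of Pik3r5 ranked 113, with fold enrichments of 20.7 and 13.4. Ccrl2, an atypical chemoattractant receptor without a numbered family symbol, had 8, the best of them at -0.425 kb with 19.0 and 11.2. Cx3cr1, the fractalkine receptor, had 3, whereas the gene of its ligand, Cx3cl1, had none. Rac2, Plcb2, Plcb3, Src, Was, Pak1, Tiam1, Rgs18 and Rgs19 had none either.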

How the data were processed

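According to the submitters' processing notes, the tools were MACS3, Bowtie2, SAMtools, cutadapt, CASAVA and bcl2fastq 2.20.0.422, and the build was mm10. By the study's methods, the authors removed reads of low mapping quality and called peaks against input at a q-value of 0.05. The deposited lists, 1 for each ChIP library, give positions, fold enrichment (a linear ratio), −log10 p-values and −log10 q-values, a score derived from the q-value, and the summit. They hold no counts, so depth is not given here. Peaks overlapping by at least 1 bp were merged, and regions with peaks of both libraries kept. Curated RefSeq transcripts of mm10 gave TSSs, and a promoter reached 1 kb upstream and 100 bp downstream of one. Percentiles were taken among all consensus regions. Wilson intervals cover counting error only, and no significance test was run, as there is a single condition. Sequences were read from the mm10 genome.

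Members, functional groups and lists were chosen with earlier results of these data known. Members with a region were named, and the best-ranked were given with positions. Ccl21d was added to its group afterwards, 1 gene of the symbol pattern is left out and 1 member is counted but not reported here, and Cxcl11 has no curated protein-coding transcript in this annotation. Scripts (Python 3.11.15, pandas 2.3.3, NumPy 2.4.6, SciPy 1.17.1, pysam 0.24.0) were tested on simulated data. Alternatives changed the peak threshold, overlap, annotation, assignment and library.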

Additional observations from a re-analysis of the deposited data

How the results depend on the processing

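No paired analysis was possible because the input libraries were not analysed here and no result comes from a test. The number of members with a region was 24 of 59 when peaks needed a fold enrichment of 5 (40.7%, against 22.7% of all genes), 31 with q-values of 0.001 or less (30.2% of all genes), 25 with 50% reciprocal overlap (22.4%) and 26 with nearer summits (24.2%). It was 31 with noncoding genes or GENCODE, but the share of all genes was not calculated there, so these counts have no background beside them. When a region had to overlap the gene body or 5 kb upstream, 21 members (35.6%, against 30.4% of all genes) and 12 ligand genes had one, with 37 regions. The 108 regions became 58 at a fold enrichment of 5, 46 with 50% reciprocal overlap and 54 with summits at most 100 bp apart. Leaving out 1 library gave 32 and 42 members, 19 and 27 ligand genes, 13 and 15 receptor genes, and 175 and 306 regions.

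The median percentile of 43.8 became 52.5 with q-values of 0.001 or less, 50.8 with reciprocal overlap, 32.5 with near summits, 41.7 with noncoding genes, 36.7 within 50 kb and 46.1 by −log10 q-value. In the same order, the medians of all regions were 34.0, 36.7, 32.5, 33.0, 33.0 and 34.9. With 1 library the measure was that library's own percentile. The member median was then 61.3 for library 2 and 64.1 for library 1, against 49.6 and 50.8 for all regions. Counts for single genes moved by over 1.5 times in 144 of 320 comparisons. Motif shares left their Wilson interval in 14 of 27 comparisons, all with a narrower window or the whole region. Apart from the change of measure with 1 library, the cause of these shifts was not tested.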
